A study of Homo sapiens with 6 samples.

Results

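Interferon-stimulated genes (ISGs) are the genes that a cell switches on when interferon reaches its surface. The 39 genes described here were taken from a list of interferon-induced effectors together with the transcription factors that drive them, and each was found by its symbol among the 21776 genes of the count table. The rule names genes and uses no measured value. RNA sequencing (RNA-seq) compared cells of a human oral squamous cell carcinoma line, SCC25, of wild-type genotype, after 12 h under hypoxia (1% O2) with the same line after 12 h under normoxia (an ordinary air incubator), with 3 libraries per condition. The labels name no interferon treatment in either. The labels name the line SCC25, whereas one figure legend of the study names SCC9; both are established lines. One line in culture was sequenced, so the values describe that line alone.

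Type I interferons (alpha, beta, epsilon) bind the receptor pair IFNAR1 and IFNAR2, type III interferons bind IFNLR1 with IL10RB, and the type II interferon binds IFNGR1 with IFNGR2. The receptors activate the kinases JAK1, TYK2 and JAK2, which phosphorylate STAT proteins. STAT2 and IRF9 belong to the complex ISGF3, which binds the interferon-stimulated response element (ISRE) in the promoters of ISGs, and interferon gamma acts mainly through the gamma-activated site (GAS). The proteins made from ISGs block viruses at many steps, and several are also expressed at a low level in epithelial cells and tumours without any infection.

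The counted reads of the hypoxia libraries numbered 30186813, 36076088 and 32272716, and those of the normoxia libraries 37278703, 29637189 and 29981208, each in the order of replicates 1 to 3. The 39 genes took a small part of each, between 0.1051% and 0.107% of the counts under hypoxia and between 0.08511% and 0.09079% under normoxia. Summed over the 39 genes, the level was 1039, 1037 and 1053 CPM (counts scaled to a common library total after TMM adjustment) in the hypoxia libraries and 860.3, 881.5 and 920.1 CPM in the normoxia libraries. The summed level was thus higher in every hypoxia library than in any normoxia library. IFITM3, OAS3 and PARP14 together made up between 43.36% and 50.23% of the members' counts in each library, so a few genes weigh heavily in the sum.

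The cells were first checked against markers. Of 10 markers of squamous epithelium, 9 had a mean of at least 1 FPKM (fragments per kilobase of gene, scaled to the total count of the library), EPCAM was the most abundant at a mean of 183 FPKM, and KRT14 was at or near 0 in every library. The 15 hypoxia response genes examined all rose, from LDHA at a log2-fold change of 0.47 to EGLN3 at 6.69. Among leukocyte markers, 7 of the 12 listed were in the table and 2 reached a mean of 1 FPKM. CD68, a lysosomal protein, was the most abundant (18.8 FPKM), CD14 rose from 0.642 to 3.60 FPKM, and the defining marker PTPRC was at 0 under normoxia and at 0.00317 FPKM under hypoxia. The summed leukocyte markers were 20.1, 22.9 and 23.6 FPKM in the hypoxia libraries and 19.7, 18.7 and 20.9 FPKM in the normoxia libraries.

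Fibroblast markers differed more between the conditions. Their sum over 8 genes was 3.97, 3.30 and 3.00 FPKM under hypoxia against 0.686, 0.520 and 0.959 FPKM under normoxia. Only COL1A1, a collagen chain, reached a mean of 1 FPKM (1.85), while COL3A1, DCN, PDGFRA and THY1 were below 0.01 FPKM in both conditions. The 4 endothelial markers in the table summed to at most 0.340 FPKM in any library. The part of other cell types in the ISG values was not tested, and in bulk RNA a change in the number of cells of a type and a change in the RNA per cell cannot be told apart.

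Of the 39 genes, 33 had enough reads to be tested, among 14255 genes tested in all by edgeR's quasi-likelihood test with Benjamini-Hochberg adjustment (called at an adjusted p under 0.05). Under hypoxia 18 of the 33 rose, 5 fell and 10 were not called. OAS2 and XAF1, among the 18, passed the filter on low counts only through their hypoxia libraries, so every count of rises that holds them is a description and supports nothing by itself. Over all tested genes, 77.8% were called, 39.2% higher and 38.5% lower, so a call as such does not set the ISGs apart. Of the 33 ISGs, 69.70% were called, with 54.55% higher and 15.15% lower. The median log2-fold change of the 33 was 0.52, beside 0.02 over all tested genes, and the median size of the change was 0.68, beside 0.63. The changes ran from -0.97 for IFIT5 to 2.44 for XAF1.

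With a log2-fold change beyond 1 required as well, 10 ISGs were higher, OAS2 and XAF1 among them, and 0 were lower. Over all tested genes 30.4% met that requirement, 19.9% higher and 10.5% lower. The libraries of the 2 conditions did not overlap for 23 of the 33 ISGs, 18 of which lay above and 5 below, beside 80.5% of all tested genes. The direction of the changes differed between members of the IFIT, OAS and MX families, as the plot of log2-fold changes by role shows.

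**Figure D1:**
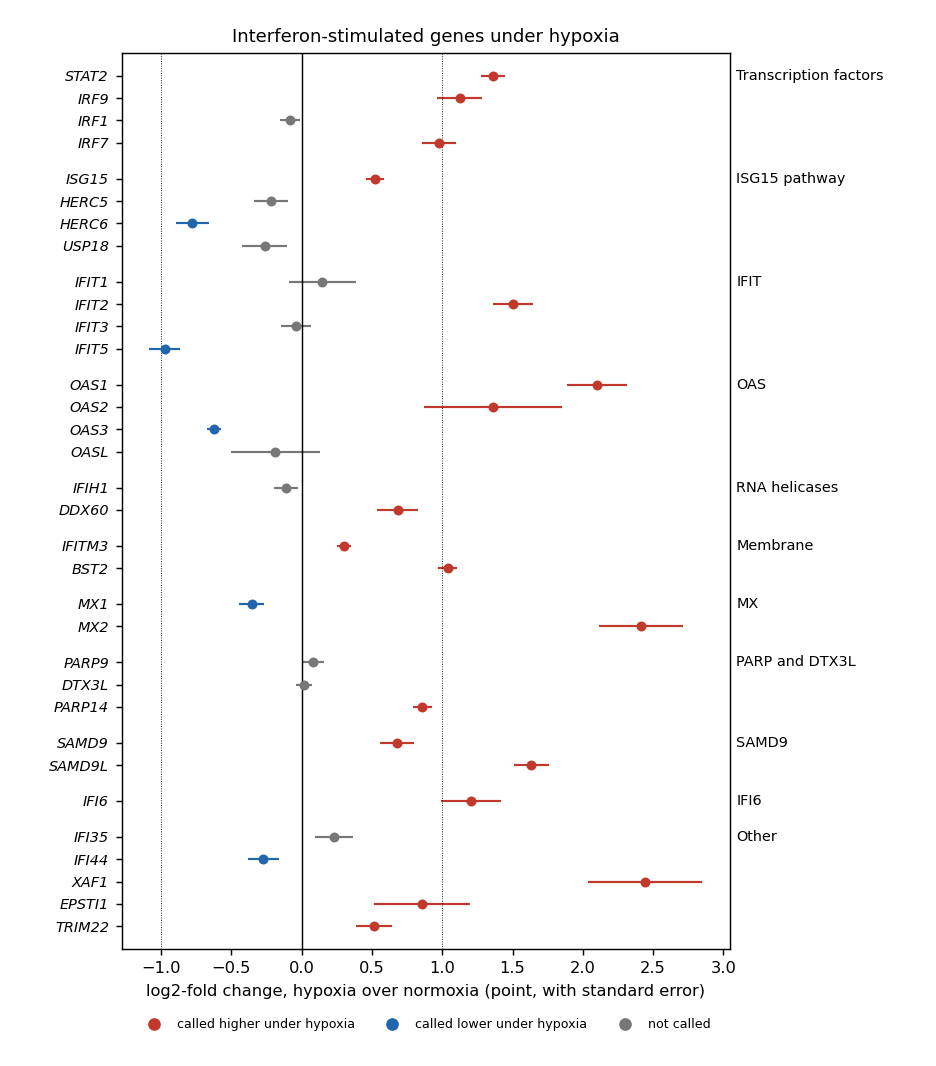
Log2-fold change of each of the 33 tested interferon-stimulated genes under hypoxia over normoxia (horizontal axis, no unit), grouped by role; points are edgeR estimates (red higher, blue lower, grey not called), bars are standard errors, and dotted lines mark changes of 1. The 18 genes that rose, the 5 that fell and the 10 not called share families, with XAF1, MX2 and OAS1 at the top of the range and IFIT5 at the bottom.

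The promoters of members at both ends of the range are shown first, searched for the element that interferon acts through. Sequences are from RefSeq (GRCh38.p14), 5′ to 3′ on the strand of the gene. In each, capitals mark the ISRE core, which was searched as GAAA, any 2 bases and GAAA, and on the other strand as TTTC, any 2 bases and TTTC. The first line is the 250 bases before the start of XAF1, a pro-apoptotic factor with the largest increase (chr17:6755796-6756045, plus strand). The second is the same stretch for IFIT5, an RNA-binding protein with the largest decrease (chr10:89414318-89414567, plus strand).
XAF1: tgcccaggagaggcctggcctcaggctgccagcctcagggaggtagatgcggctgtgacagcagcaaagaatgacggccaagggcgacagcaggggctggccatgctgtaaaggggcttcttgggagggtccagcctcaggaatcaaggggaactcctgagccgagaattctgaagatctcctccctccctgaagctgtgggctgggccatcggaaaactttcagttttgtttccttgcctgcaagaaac
IFIT5: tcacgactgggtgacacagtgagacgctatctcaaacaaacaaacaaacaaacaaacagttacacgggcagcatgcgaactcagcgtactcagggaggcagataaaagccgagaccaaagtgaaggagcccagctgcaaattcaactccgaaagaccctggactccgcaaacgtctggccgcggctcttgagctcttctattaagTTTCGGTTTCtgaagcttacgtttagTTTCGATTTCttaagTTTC
IFIT5 held 3 matches, the last of which crosses the end of the printed stretch, and XAF1 held none.

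The element also stood in promoters of genes that changed in opposite directions. BST2 (tetherin, which holds budding virus at the membrane) rose and OAS3 (a synthetase that senses double-stranded RNA) fell. The 40-base windows around their matches are chr19:17405733-17405772 on the minus strand for BST2, and chr12:112938316-112938355 and chr12:112938434-112938473 on the plus strand for OAS3.
BST2: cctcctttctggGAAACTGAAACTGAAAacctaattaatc
OAS3, distal: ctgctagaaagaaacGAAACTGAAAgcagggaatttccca
OAS3, proximal: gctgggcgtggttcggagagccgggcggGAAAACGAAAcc
The BST2 match covers 16 bases, from 130 to 115 bases before the start, since GAAA occurs there 3 times in a row. The OAS3 matches began 143 and 12 bases before the start.

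Of the 39 ISGs, 31 had a promoter of 300 bases (250 before and 50 after the start). The promoters of IFITM2, OAS2, USP18, IRF7, OASL, IFIT2, TRIM22 and MX2 were not analysed here. The ISRE core stood on either strand in 20 of the 31 (64.5%), beside 3.57% of 35116 promoters of this length. It was present in 8 of 13 ISGs that rose, in 4 of 5 that fell, in 5 of 8 not called and in 3 of 5 not tested. Genes with and without the element were therefore found in every class, in both directions of change.

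Other elements were rarer among the ISGs. The GAS letters TTCNNNGAA stood in 10 of the 31 promoters (32.3%, beside 7.66% of all), with 6 of the 13 that rose and 0 of the 5 that fell. The core of the hypoxia response element, ACGTG on either strand, stood in 6 of the 31 (19.4%, beside 21.41% of all), with 4 of the 13 that rose and 0 of the 5 that fell. Matches of different elements may share bases, and a match describes letters only. The promoters of STAT2, XAF1 and SAMD9L, which rose, and of HERC6, which fell, held none of the 3 elements in this window. Neither did those of PARP9, which was not called, or of RSAD2 and CMPK2, which were not tested.

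Upstream of the ISGs, the ligand side of the pathway was thinly measured. IFNE, the epithelial type I interferon, was the only one of 9 interferon genes listed that was in the table; the other 8 were not analysed here. IFNE had 41, 91 and 64 counts in the hypoxia libraries and 7, 8 and 13 in the normoxia libraries. Like OAS2, IFNE passed the filter on low counts only through its hypoxia libraries, so its rise is a description and supports nothing by itself. It rose by a log2-fold change of 2.69 ± 0.40 (SE; adjusted p = 8.57e-06, edgeR), from a low level of 0.201 to 1.33 FPKM. Every hypoxia library lay above every normoxia library.

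The receptors changed little apart from one subunit. IL10RB, which the type III interferon receptor shares with the IL-10 family, stood at 29.7, 30.7 and 30.1 FPKM under hypoxia and at 12.1, 11.9 and 12.8 FPKM under normoxia, a log2-fold change of 1.25 ± 0.063 (SE; adjusted p = 8.42e-12, edgeR). IFNGR2 (0.40) and IFNAR1 (0.20) also rose. IFNAR2 (-0.12), IFNLR1 (-0.18) and IFNGR1 (0.05), in log2-fold change, were not called. In all, 3 of 6 receptor subunits rose and 0 fell, a list too short to read against the 39.2% and 38.5% of all tested genes.

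Among the kinases, JAK1 rose by 0.27 on the log2 scale, while JAK2 (-0.22) and TYK2 (0.12) were not called. STAT3, which other cytokines use, fell by 0.14 on the log2 scale.

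Of the 4 transcription factors in the list, STAT2, IRF9 and IRF7 rose. STAT2 went to 10.8, 10.6 and 10.7 FPKM in the hypoxia libraries from 3.98, 3.44 and 4.68 FPKM in the normoxia libraries. The log2-fold change was 1.36 ± 0.085 (SE; adjusted p = 1.33e-10, edgeR). Every hypoxia library lay above every normoxia library, and the hypoxia libraries lay closer together.

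IRF9, the DNA-binding subunit of ISGF3, had 4.34, 5.14 and 5.27 FPKM under hypoxia and 2.26, 1.71 and 2.59 FPKM under normoxia. It rose by a log2-fold change of 1.12 ± 0.16 (SE; adjusted p = 5.03e-06, edgeR), and the libraries did not overlap. In GENCODE v29, 43.62% of the 50-base stretches of its transcripts also occur in other genes, mainly the overlapping AL136295.5, so its level depends on how shared reads were assigned. IRF7, which amplifies type I interferon production, had 5.38, 6.05 and 5.54 FPKM under hypoxia and 2.73, 2.56 and 3.08 FPKM under normoxia. It rose by 0.98 ± 0.12 on the log2 scale (SE; adjusted p = 1.16e-06, edgeR).

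IRF1, a factor that interferon gamma induces, behaved differently from these. Its levels were 16.2, 14.2 and 16.0 FPKM under hypoxia and 15.5, 14.8 and 17.3 FPKM under normoxia, so the conditions overlapped. The log2-fold change of -0.08 ± 0.071 (SE) was not called (adjusted p = 0.292, edgeR). It was the most abundant of the 4 listed factors in either condition. Exons of C5orf56 on the opposite strand cover 22.0% of its exons, and whether the counting used the strand was not given in the sources used here.

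The ISG15 group attaches the ubiquitin-like protein ISG15 to other proteins. ISG15 itself was among the 3 most abundant members, at 77.0, 80.9 and 83.6 FPKM under hypoxia and 57.8, 52.3 and 52.4 FPKM under normoxia. It rose by 0.52 ± 0.065 on the log2 scale (SE; adjusted p = 9.61e-07, edgeR). UBE2L6, the enzyme that carries ISG15 to its ligase and a gene outside the 39, rose by 0.96. HERC5, the main human ligase, was not called (log2-fold change -0.22, adjusted p = 0.108), and neither was USP18, the protease that removes ISG15 (-0.26, adjusted p = 0.137; edgeR for both).

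HERC6, the neighbour of HERC5 on chromosome 4, fell. It had 1.73, 2.18 and 2.00 FPKM under hypoxia and 3.54, 3.02 and 3.26 FPKM under normoxia, with no overlap. The log2-fold change was -0.78 ± 0.11 (SE; adjusted p = 8.31e-06, edgeR). The FPKM of USP18 rests on reads that could be shared, since 23.41% of its 50-base stretches occur elsewhere, mainly in USP41.

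The IFIT genes, whose proteins bind foreign RNA, lie side by side on chromosome 10 and showed every outcome. IFIT2 stood at 3.46, 2.94 and 3.21 FPKM under hypoxia and at 0.980, 1.03 and 1.27 FPKM under normoxia. It rose 2.84-fold (adjusted p = 3.81e-08, edgeR) with a standard error of 0.14 on the log2 scale. IFIT5 stood at 2.56, 2.39 and 2.15 FPKM under hypoxia and at 4.39, 4.97 and 4.10 FPKM under normoxia.

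IFIT2 thus rose while IFIT5, at the other end of the cluster, fell, and the log2-fold change of IFIT5 was -0.97 ± 0.11 (SE; adjusted p = 3.34e-07, edgeR). The FPKM of IFIT5 was 0.740, 0.812 and 0.669 times that of IFIT2 in the hypoxia libraries and 4.48, 4.81 and 3.23 times in the normoxia libraries. The order of these 2 genes was therefore turned round in all 6 libraries between the conditions. IFIT1 (log2-fold change 0.15, adjusted p = 0.577) and IFIT3 (-0.04, adjusted p = 0.731), the partners of IFIT2 in one complex, were not called by edgeR. An exon of LIPA on the opposite strand overlaps 65 bases of IFIT2, and LIPA rose by 0.90 on the log2 scale.

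The oligoadenylate synthetases (OAS) sense double-stranded RNA and make oligoadenylates as a second messenger. OAS1 had 1.36, 1.47 and 1.08 FPKM under hypoxia and 0.280, 0.254 and 0.348 FPKM under normoxia. It rose 4.30-fold, a log2-fold change of 2.10 ± 0.21 (SE; adjusted p = 8.03e-08, edgeR). OAS3 was by far the more abundant, at 20.7, 19.9 and 20.2 FPKM under hypoxia and 30.0, 30.1 and 30.5 FPKM under normoxia.

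OAS3 fell by 0.62 on the log2 scale with a standard error of 0.051 (adjusted p = 4.82e-09, edgeR). The ratio of OAS3 to OAS1 in FPKM was 15.3, 13.5 and 18.7 in the hypoxia libraries and 107, 119 and 87.8 in the normoxia libraries, so OAS3 stayed the main form in both. OAS2, between them in size, was at 17, 21 and 36 counts under hypoxia and 6, 7 and 14 under normoxia. It rose by 1.36 ± 0.49 on the log2 scale (SE; adjusted p = 0.0183, edgeR), a call lost when hypoxia replicate 3, normoxia replicate 1 or normoxia replicate 2 was left out. OASL, a relative without synthetase activity, was not called (-0.19, adjusted p = 0.599).

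**Figure D2:**
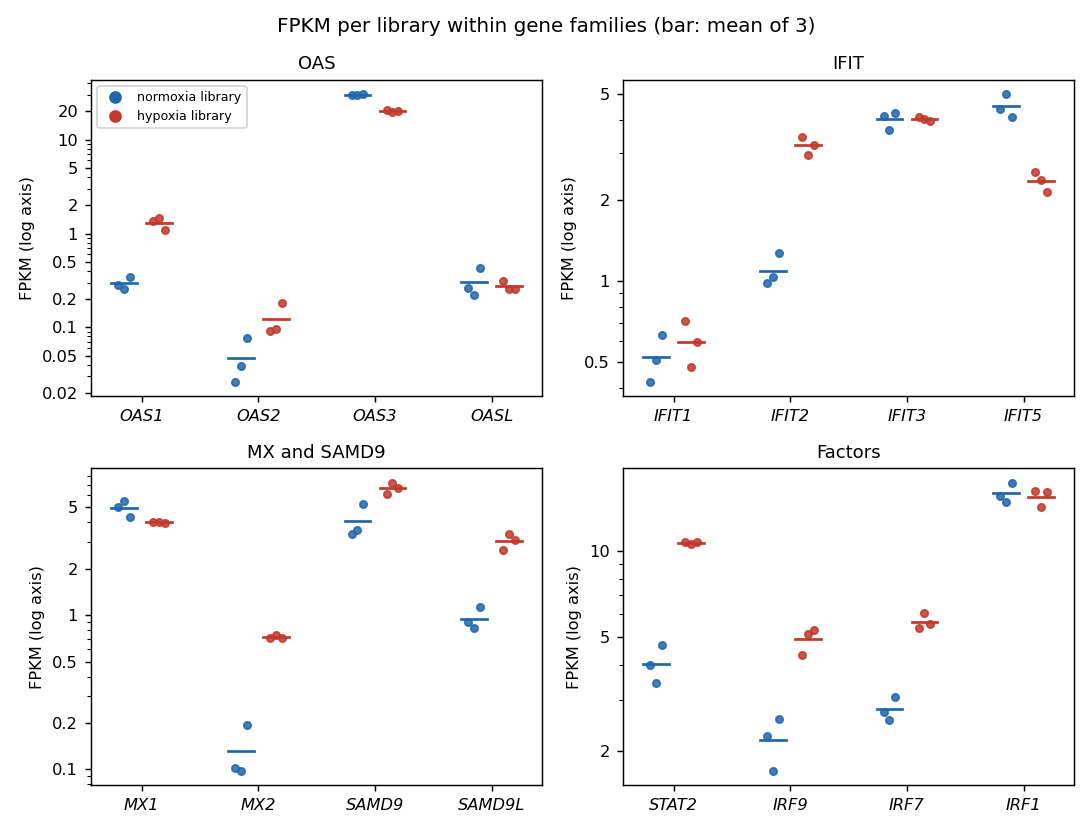
FPKM in each library (vertical axes, log scale, FPKM) for the OAS and IFIT families, the MX and SAMD9 pairs, and the 4 listed transcription factors; points are libraries (blue normoxia, red hypoxia) and bars are means of 3. OAS1, IFIT2 and MX2 lay higher and OAS3, IFIT5 and MX1 lower in every hypoxia library, while IFIT3 and IRF1 overlapped.

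The MX proteins are dynamin-like GTPases, MX1 acting on influenza and many RNA viruses and MX2 on HIV. The genes are neighbours on chromosome 21. MX2 had 0.713, 0.746 and 0.709 FPKM under hypoxia and 0.102, 0.0984 and 0.194 FPKM under normoxia, with normoxia replicate 3 the highest of its group. It rose 5.34-fold, a log2-fold change of 2.42 ± 0.30 (SE; adjusted p = 9.53e-07, edgeR).

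MX1 was the more abundant and fell. It had 4.05, 4.03 and 3.99 FPKM under hypoxia and 5.03, 5.52 and 4.36 FPKM under normoxia. The change was -0.35 ± 0.089 on the log2 scale (SE; adjusted p = 0.00152, edgeR). The ratio of MX1 to MX2 in FPKM was 5.67, 5.4 and 5.62 under hypoxia and 49.2, 56.2 and 22.4 under normoxia.

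SAMD9 and SAMD9L, antiviral proteins that lie next to each other on chromosome 7, both rose. SAMD9L had 2.65, 3.37 and 3.09 FPKM under hypoxia and 0.904, 0.821 and 1.12 FPKM under normoxia, a log2-fold change of 1.63 ± 0.12 (SE; adjusted p = 1.56e-09, edgeR). SAMD9 had 6.10, 7.22 and 6.72 FPKM under hypoxia and 3.35, 3.57 and 5.24 FPKM under normoxia, a log2-fold change of 0.68 ± 0.12 (SE; adjusted p = 6.25e-05, edgeR). The change of SAMD9L was the larger, and the ratio of SAMD9 to SAMD9L was lower in each hypoxia library (2.14 to 2.30) than in any normoxia library (3.71 to 4.66).

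PARP14, an ADP-ribosyltransferase, rose to 12.8, 14.6 and 12.7 FPKM under hypoxia from 6.86, 6.64 and 7.89 FPKM under normoxia. The log2-fold change was 0.86 ± 0.068 (SE; adjusted p = 3.11e-09, edgeR). Its neighbours on chromosome 3, PARP9 and DTX3L, whose proteins work as a pair in DNA repair and interferon signalling, were not called. Their log2-fold changes were 0.08 (adjusted p = 0.365) and 0.02 (adjusted p = 0.808). PARP9 and DTX3L share 217 bases of exon on opposite strands.

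Of the RNA helicases, IFIH1 (MDA5, a sensor of long double-stranded RNA) was not called, at a log2-fold change of -0.11 (adjusted p = 0.229, edgeR). DDX60, which promotes such sensing, rose by 0.68 ± 0.15 on the log2 scale (SE; adjusted p = 0.000383, edgeR). Among genes outside the 39, the related sensor RIG-I, listed under its older symbol DDX58, fell by 0.34 on the log2 scale, whereas DHX58 (LGP2, the third member of that family) rose by 2.68 and TLR3 by 2.03. DHX58 had 18, 4 and 12 counts under normoxia and passed the filter on low counts only with its hypoxia libraries, so its rise is a description. CGAS, the sensor of cytosolic DNA, fell by 1.31 on the log2 scale, from 12.9, 11.8 and 10.3 FPKM under normoxia to 4.85, 4.83 and 4.85 FPKM under hypoxia.

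The most abundant member in both conditions was the membrane protein IFITM3, which keeps viruses in endosomes, at 357, 353 and 361 FPKM under hypoxia and 279, 285 and 280 FPKM under normoxia. It rose by 0.30 ± 0.051 on the log2 scale (SE; adjusted p = 3.94e-05, edgeR), a small change larger than the spread between libraries. Since 17.36% of its 50-base stretches are shared with other genes, mostly the related IFITM genes, some reads could have been split between them.

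BST2, whose ISRE window is printed above, was at 90.9, 95.3 and 93.8 FPKM under hypoxia and 42.7, 40.7 and 48.7 FPKM under normoxia. It rose 2.05-fold, a log2-fold change of 1.04 ± 0.065 (SE; adjusted p = 1.33e-10, edgeR). No hypoxia library overlapped the normoxia libraries.

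The remaining members were of several kinds. IFI6, a mitochondrial and endoplasmic reticulum protein that counters cell death, had 8.23, 4.86 and 6.57 FPKM under hypoxia and 2.58, 2.22 and 3.45 FPKM under normoxia. It rose by 1.21 ± 0.22 on the log2 scale (SE; adjusted p = 6.67e-05, edgeR), and its hypoxia libraries were the more spread.

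XAF1, the largest increase, had 0.255, 0.310 and 0.166 FPKM under hypoxia and 0.0493, 0.0338 and 0.0446 FPKM under normoxia, from 46, 67 and 32 counts against 11, 6 and 8. The fold change of 5.44 (log2 2.44 ± 0.41, SE; adjusted p = 3.32e-05, edgeR) thus rests on few reads. Exons of PRAL on the opposite strand cover 38.3% of those of XAF1. TRIM22, a ubiquitin ligase, rose by 0.52 (adjusted p = 0.00151), and EPSTI1 rose by 0.86 (adjusted p = 0.0294), a call lost when any of hypoxia replicates 1 and 2 or normoxia replicates 1 and 3 was left out and with no filter.

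IFI44 fell by 0.27 on the log2 scale (adjusted p = 0.0335, edgeR), a call that was kept in 4 of 11 other fits to counts and lost, for example, in the DESeq2 Wald test, with at least 10 counts required, and without any of hypoxia replicates 1 and 3 or normoxia replicates 2 and 3. IFI35, a partner of NMI, was not called (0.23, adjusted p = 0.124).

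The 6 members not tested were near the limit of detection. IFITM1 had 15, 18 and 7 counts under hypoxia and 6, 3 and 1 under normoxia, and IFITM2 had 23, 27 and 9 against 4, 6 and 9. IFI27 had 15, 11 and 22 counts against 6, 4 and 4, and IFI44L had 17, 5 and 2 against 0, 2 and 1. RSAD2 (viperin) had 3, 6 and 6 counts against 4, 3 and 16, and CMPK2, its neighbour on chromosome 2, had 2, 4 and 4 against 6, 13 and 9. With no filter, edgeR gave an adjusted p under 0.05 for IFITM1 (0.0288), IFITM2 (0.031), IFI27 (0.0315) and IFI44L (0.0252), all higher under hypoxia, and not for CMPK2 (0.0947) or RSAD2 (0.461). In IFI44L every normoxia library was at or under 3 counts, so its fold change has no firm size. Between 31.96% and 34.14% of the 50-base stretches of IFITM1 and IFITM2 occur in other genes.

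The levels of the 39 genes spanned a wide range. Their median was 3.20 FPKM under hypoxia and 2.75 FPKM under normoxia, beside 1.16 and 0.781 FPKM over all genes. Among tested genes alone, the ISGs had medians of 4.02 and 3.27 FPKM, below the 4.78 and 4.71 FPKM of all tested genes. Under 1 FPKM lay 12 of the 39 under hypoxia and 15 under normoxia, and 4 lay above 20 FPKM in either condition. The level bears on the counts of rises, because in these libraries genes of low level rose more often than they fell.

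Among all tested genes with a mean log2 CPM under 0, 55.6% rose and 6.0% fell, with a median log2-fold change of 1.29. Between 0 and 2 the shares were 54.6% and 13.2% (median 0.74), and between 2 and 4 they were 43.3% and 32.2% (0.13). Between 4 and 6 they were 30.9% and 51.4% (-0.20), and over 6 they were 31.8% and 54.4% (-0.20). Rises were thus less frequent above a log2 CPM of 2, and the ISGs have to be read against genes of their own level.

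The 2 ISGs under 0, OAS2 and XAF1, are the ones that passed the filter only through their hypoxia libraries, so their rises carry no weight here. The 5 between 0 and 2 had a median of 0.86, with 3 that rose and 0 that fell. The 14 ISGs between 2 and 4 had a median log2-fold change of 0.37, with 7 that rose and 3 that fell. The 8 between 4 and 6 had a median of 0.05, with 3 that rose and 1 that fell. The 4 above 6 (BST2, IFITM3, OAS3 and PARP14) had a median of 0.58, with 3 that rose and 1 that fell. The bands hold few ISGs, and these medians are a description without a test.

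**Figure D3:**
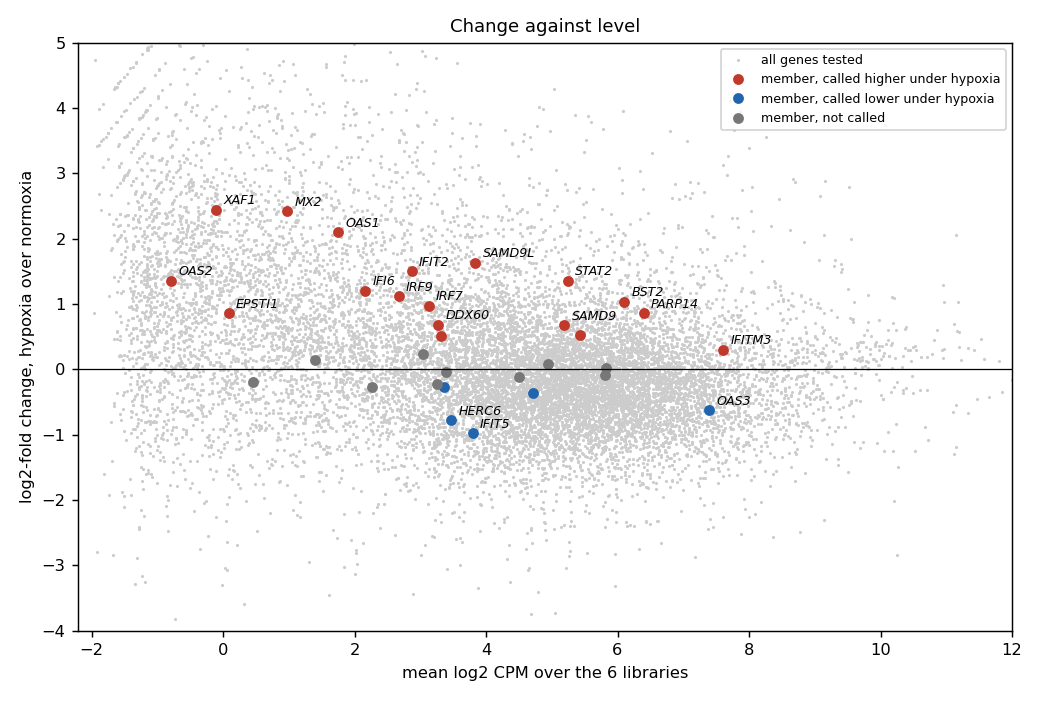
Log2-fold change under hypoxia over normoxia (vertical axis) against mean level (horizontal axis, log2 CPM) for all tested genes as small grey points and the 33 tested interferon-stimulated genes as large points (red higher, blue lower, dark grey not called); 114 genes lie outside the axes. The grey cloud bends upward at low level, and OAS2 and XAF1 sit at its low end while BST2, IFITM3, OAS3 and PARP14 sit above 6.

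Among the ISGs that rose, normoxia replicate 3 was often the normoxia library nearest to hypoxia. Of the 18 ISGs that rose, 13 (72.2%) had their highest normoxia level in replicate 3, among them MX2, SAMD9, STAT2 and IRF9. Over all 5595 genes that rose, 58.6% had their highest normoxia level in that library. Whatever their call, 20 of the 33 tested ISGs (60.6%) did so, beside 37.2% of all 14255 tested genes. Without it, 23 ISGs were called, 19 higher and 4 lower, beside 11390 of 14719 genes tested in that fit, 5770 higher and 5620 lower. The part of this library in the values of single genes was not tested further.

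Of 6 inhibitors of the pathway tested, 4 rose and 1 fell, in a list too short to read against the 39.2% of all tested genes that rose and the 38.5% that fell. Those that rose included SOCS3 (0.87), which blocks JAK kinases, PTPN6 (0.75), a phosphatase, and IRF2 (0.73), a repressor of IRF1 targets. TRIM24, a corepressor, fell by 0.91 on the log2 scale. Of the 8 adaptors and inducers of interferon, 3 rose and 3 fell. IRF5 rose by 1.16 and STING1, the adaptor downstream of CGAS, by 0.99, while TRAF3 fell by 0.69, IKBKE by 0.51 and IRF3 by 0.30. Over all the pathway lists, 16 of 32 tested genes rose and 8 fell (50% and 25%, beside the same 39.2% and 38.5%). IFNE and DHX58, among the 16, passed the filter on low counts only with their hypoxia libraries, so this count of rises is a description and supports nothing by itself.

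**Figure D4:**
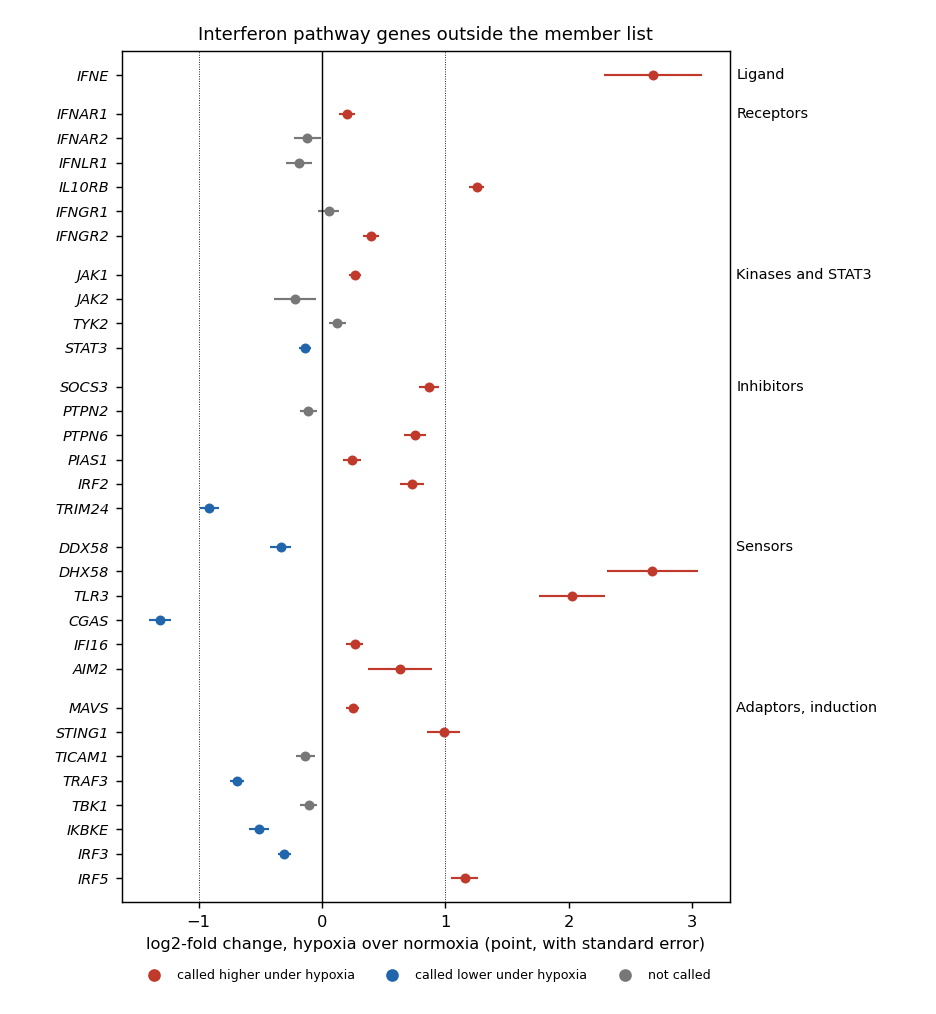
Log2-fold change under hypoxia over normoxia (horizontal axis, no unit) for tested genes of the interferon pathway outside the 39, less one not reported here, grouped as ligand, receptors, kinases with STAT3, inhibitors, sensors and adaptors; points are edgeR estimates (red higher, blue lower, grey not called) and bars are standard errors. IFNE, DHX58 and TLR3 lay above 2, and CGAS was the only gene below -1.

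A second list held ISGs that are not among the 39. Of 33 tested, 19 rose (57.58%, beside 39.2% of all tested genes), 10 fell (30.3%, beside 38.5%) and 4 were not called, with a median log2-fold change of 0.38. GBP2, a guanylate-binding protein, rose by 4.38, TNFSF10 (TRAIL, a death ligand) by 3.57 and ISG20, an RNA exonuclease, by 2.22. GBP2, its relative GBP4 and TNFSF10, among the 19, passed the filter on low counts only with their hypoxia libraries. Their rises and the count of 19 are therefore descriptions and support nothing by themselves. PNPT1, a mitochondrial RNA exonuclease, fell by 1.75 on the log2 scale, and LAP3, an aminopeptidase, fell to 0.434 times its normoxia level. The chemokines CXCL10, CXCL11 and CCL5, which interferon induces strongly in many cells, had mean levels under 0.1 FPKM in both conditions and were not tested.

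Genes of antigen presentation, many of which are also interferon-responsive, were examined as a separate list. Of 18 tested, 12 rose (66.67%, beside 39.2% of all tested genes) and 1 fell. HLA-F rose by 1.73 and B2M by 0.60 on the log2 scale, while TAP2, a subunit of the peptide transporter, fell by 1.25.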

How the data were processed

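The authors deposited whole-number counts of reads per gene for 6 libraries, with no normalization, and FPKM of the same genes, which they scaled by gene length and library total. RNA was extracted with a column kit, and libraries were made with a SMARTER mRNA kit. The aligner, counting tool, annotation and strand setting are not given in the sources used here. The submitters' processing notes list GRCm38 and mm10, which are mouse builds, although the genes have human symbols and human Entrez numbers, so no build of the files is assumed. No per-sample column was left unused.

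Libraries were grouped by title. Nothing states that replicates came from separate cultures, so p-values measure the spread between these libraries, which may be technical. Replicates differed by more than sampling noise (chi-square per gene 5.107 to 11.49).

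The test on counts was edgeR's quasi-likelihood F test (edgeR 4.0.16, R 4.3.3) after TMM and filterByExpr, with a single term for condition, Benjamini-Hochberg adjustment over 14255 genes and calls under 0.05. Standard errors were derived as the absolute log2-fold change over the square root of F. Alternatives were DESeq2 1.42.0 size factors and Wald test, no filter, at least 10 counts in every library, a replicate block, each library left out, an added log2-fold change of 1, and limma 3.58.1 on log2(FPKM + 1), with a pseudocount of 0.1 and with no filter. Scripts were tested on simulated data first. Total counts of 29637189 to 37278703 leave genes at or under 3 counts without a measurable level.

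The members and all lists were chosen with earlier results of these data known, so their agreement with those results is no independent support. All 39 members were accounted for. Values of each library are given for the 4 transcription factors and for members called with a log2-fold change of at least 1 in size. They are also given for the 3 most abundant members and for the most opposed pair of the IFIT, OAS, MX and SAMD9 families. HERC6 and PARP14 have them as well, but HERC5, PARP9 and DTX3L do not. Other members are given by range or example. Promoters, motif letters, exon overlaps and shared 50-base stretches came from RefSeq (GRCh38.p14) and GENCODE v29, used for names, order and sequence only. A few genes of the lists outside the members are not reported here by name, although the counts over lists include them.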

Additional observations from a re-analysis of the deposited data

How the results depend on the processing

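Of the 23 ISGs called, 20 were called in every one of the 11 other fits to counts that could test them, and OAS2, IFI44 and EPSTI1 lost the call in at least 1; IFI35 gained one with at least 10 counts required. Of 444 results of single ISGs over all alternatives, FPKM included, 414 kept their direction and their side of the threshold, 17 lost the call and 3 gained it. The other 10 changed sign, in 4 ISGs that were called in none of the fits concerned; the cause was not tested. With 1 library left out, the log2-fold change ran from -0.0146 to 0.292 for IFIT1, from -0.359 to 0.123 for OASL and from -0.0157 to 0.0238 for DTX3L. DTX3L was at -0.025 with no filter, and IFIT3 was at 0.0355 with at least 10 counts and, by limma, at 0.00587 on log2(FPKM + 1) with and without a filter and at 0.00763 on log2(FPKM + 0.1). The number of genes called ranged from 9967 (at least 10 counts) to 11920 (no filter), and from 10669 to 11390 with 1 library left out; the ISGs called ranged from 21 to 26, and from 21 to 24 with 1 library left out. With a log2-fold change of 1 also required, 4338 genes were called (2840 higher, 1498 lower), and 10 ISGs (10 higher, 0 lower). Filters shifted the median of all genes by -0.0408 (no filter) and 0.0775 (at least 10 counts). The labels number the replicates, but same-numbered libraries did not deviate together (correlations 0.0175, -0.069 and 0.00122), so the samples share only a number. With the replicate block, 10875 genes and 22 ISGs (18 higher, 4 lower) were called, IFI44 losing its call (adjusted p = 0.0522, edgeR), and 52 of the pathway and other interferon genes in place of 53. Depth limits the 6 untested members and XAF1, OAS2, EPSTI1 and OASL, which rest on under 100 counts per library. IFIT1 had between 70 and 100 counts. In every normoxia library, MX2 (17, 13 and 26 counts), OAS1 (43, 31 and 43) and IFI6 (92, 63 and 99) also had under 100.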
